A study of Mus musculus with 26 samples.

Results

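Livers of leptin-deficient ob/ob mice given leptin under the skin (LEP-SQ) were set against livers of ob/ob mice given saline by the same route (VEH-SQ). The sample titles assigned 4 arrays to LEP-SQ and 4 to VEH-SQ, 8 of the 26 arrays in the series, and all detected probes were used. LEP-SQ mice received 10 µg leptin per day and VEH-SQ mice saline, in both groups from implanted osmotic mini-pumps over 12 days. All 8 were female, carried the ob mutation on a C57BL6 background and were 15 weeks old when treatment groups were formed, so VEH-SQ mice were obese animals without functional leptin and not lean ones. A further 3 sets of ob/ob mice served as references: LEP-ICV mice had 1.5 µg leptin per day infused into a lateral brain ventricle, VEH-ICV mice had artificial cerebrospinal fluid there, and LEP-ICVN mice were treated like LEP-ICV but lost almost no weight, with the position of their cannula in doubt. Mice of these 3 sets were also female, on the C57BL6 background and 15 weeks old when groups were formed. Their infusions also ran for 12 days. The model also held 6 mice of strain C57BL6 labelled as baseline (B6), not ob/ob, which enter its error but no comparison given here. Each array held RNA from the liver of 1 mouse, hybridised to an Illumina mouse BeadChip that reads each gene through 1 or a few probes. In RNA of a whole liver, fewer cells of a type and less RNA per cell cannot be told apart.

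Leptin is a hormone of fat cells that acts on the hypothalamus to restrain feeding, and mice without it overeat and accumulate fat in the liver. In the fed liver, citrate is turned into fatty acids by ATP citrate lyase (Acly), acetyl-CoA carboxylase (Acaca) and fatty acid synthase (Fasn), malic enzyme (Me1) supplies NADPH, and Elovl6 and Scd1 elongate and desaturate the product. The transcription factors Srebf1 and Mlxipl switch these genes on in response to insulin and glucose. The pattern of growth hormone secretion keeps another set of liver genes, among them the Mup urinary proteins and several P450 enzymes, at different levels in males and females.

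The arrays of the groups differed in brightness before any gene was considered. The background of an array, taken as the median signal of probes with a detection score of 0.4 to 0.6, was 170.8 ± 7.59 on LEP-SQ arrays and 117.8 ± 7.27 on VEH-SQ arrays (SD, n = 4 each). It was above 140 on all LEP-SQ arrays and below 140 on all VEH-SQ arrays. The number of detected probes was 9889 ± 587 on LEP-SQ arrays and 8044 ± 842 on VEH-SQ arrays, and VEH_SQ_1034 had the fewest, 6786. Treatment and background class cannot be told apart from these 8 arrays alone. Every result below is therefore given in up to 3 ways: LEP-SQ against VEH-SQ in a limma model of all 6 groups, the same comparison with background class as a term (the class model, which can estimate class only from LEP-ICV and LEP-ICVN, since those groups have 2 arrays in each class), and LEP-SQ against the 2 LEP-ICVN arrays of high background, LEP_ICVN_1001 and LEP_ICVN_1008. Those 2 mice had also received leptin, so this is not a comparison with vehicle. Within LEP-ICV, the number of detected probes overlapped between classes, at 7880 and 9705 on low-background and 11117 and 8092 on high-background arrays. The class model may thus not remove all that differs between bright and dim arrays. Signals are given unnormalized, for LEP_SQ_1029, LEP_SQ_1032, LEP_SQ_1039 and LEP_SQ_1041 and for VEH_SQ_1007, VEH_SQ_1034, VEH_SQ_1035 and VEH_SQ_1040, in that order. Log2 differences are between group means of normalized values, with adjusted p from limma's moderated test over all genes.

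**Figure D1:**
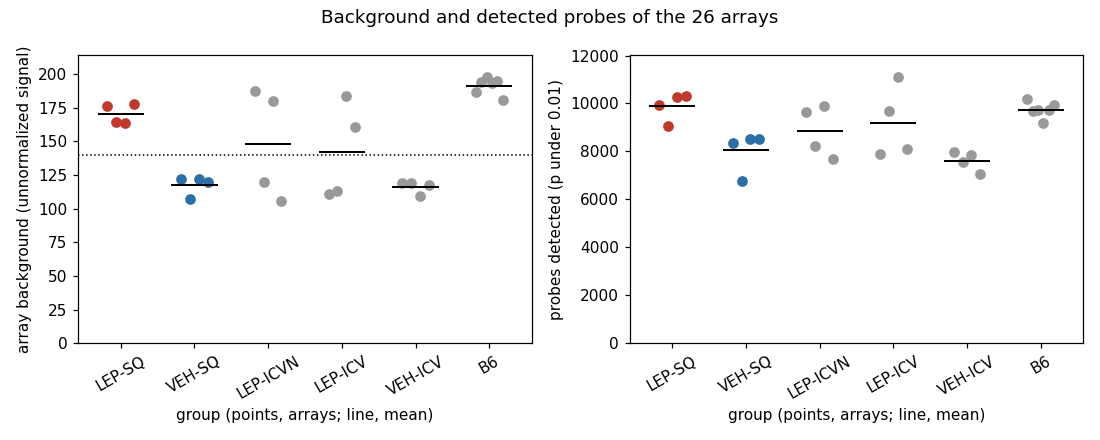
Background (left, unnormalized signal) and number of detected probes (right) of the 26 arrays by group, 1 point per mouse, with solid lines for group means and a dotted line at a background of 140. The 4 LEP-SQ arrays lie at 163.8 to 178.0 and the 4 VEH-SQ arrays at 107.1 to 122.3.

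Of 7953 genes tested, 1516 (19.1%) were higher and 1658 (20.8%) lower in LEP-SQ than in VEH-SQ at an adjusted p under 0.05. In the class model 9 genes (0.113%) were higher and 14 (0.176%) lower, and against the high-background LEP-ICVN arrays 7 (0.0880%) were higher and 9 (0.113%) lower. Of the 1516 higher genes, 1294 kept their sign in the class model and 8 were called there, and of the 1658 lower genes 1389 kept their sign and 13 were called. Their median log2 differences shrank as well: the higher genes had a median of 1.23, against 0.39 in the class model and 0.06 against high-background LEP-ICVN, and the lower genes -1.09, -0.30 and -0.07. By rank alone, which does not depend on an array's scale, the 4 LEP-SQ arrays lay entirely above the 4 VEH-SQ arrays for 1748 genes (22%) and entirely below for 2260 (28.4%). A called gene was thus common in this comparison, and a list of genes is read below against these shares.

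The liver label fitted the arrays. All 10 tested hepatocyte markers were detected on all 8 arrays, with a summed signal of 258588 to 302460 on LEP-SQ and 177292 to 360788 on VEH-SQ arrays. Markers of T and NK cells and of B cells lay near background, with Cd3d, Cd3e, Cd3g, Cd79a and Cd79b detected on none of the VEH-SQ arrays and each on at least 1 LEP-SQ array. Albumin (Alb), a defining hepatocyte product, read 387, 394, 433 and 477 on LEP-SQ arrays and 1776, 697, 1719 and 1517 on VEH-SQ arrays, a log2 difference of -3.11 (adjusted p = 0.00204) that was -0.68 in the class model (adjusted p = 0.806) and -0.31 against high-background LEP-ICVN. Transferrin (Trf), another hepatocyte product, differed the other way, by 2.97 (adjusted p = 0.018), with 1.91 in the class model and -0.14 against high-background LEP-ICVN. The single tested Alb probe had a mean rank percentile of 45.2 in LEP-SQ and 85.0 in VEH-SQ. The median over the hepatocyte markers was 99.2 and 99.7. Whether that probe follows albumin mRNA was not tested. Of the red cell markers, the globin gene Hbb-bt was lower in LEP-SQ (log2 -2.76, adjusted p = 0.00117), the anion exchanger Slc4a1 was lower and not detected in LEP-SQ (by 3.72-fold or more, adjusted p = 0.000522), while the haem synthesis enzyme Alas2 was higher (log2 0.87, adjusted p = 0.00829). Their part in the other results was not tested.

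Igfbp2, Scd1, Gstm3 and Pla2g4f were each separated without overlap between the groups. By rank, the same held for 22% of all tested genes upward and 28.4% downward. Igfbp2, which encodes a binding protein for insulin-like growth factors, had signals of 1486, 2844, 3128 and 6813 on the 4 LEP-SQ arrays and 346, 147, 318 and 259 on the 4 VEH-SQ arrays. All 4 LEP-SQ arrays read higher than every VEH-SQ array. Igfbp2 was 10.2-fold higher in LEP-SQ (log2 3.35, SE 0.53, adjusted p = 0.000392). Igfbp2 also rose in the class model, by 4.26 (adjusted p = 0.00606), and against high-background LEP-ICVN, by 4.03 (adjusted p = 0.000476). Its mean rank within an array was at percentile 86.7 in LEP-SQ and 47.1 in VEH-SQ (p = 0.0286, exact two-sided permutation test, the smallest p that 4 against 4 arrays allow).

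Pla2g4f, a cytosolic phospholipase A2, was the gene with the smallest adjusted p of the comparison among those named here. Its signals were 191, 179.8, 184 and 184 in LEP-SQ, on none of whose arrays it was detected, and 966, 429, 1242 and 762 in VEH-SQ. Each LEP-SQ array read lower than every VEH-SQ array. Pla2g4f was at least 18.6-fold lower in LEP-SQ, with a fitted log2 difference of -5.05 (adjusted p = 9.88e-12), -5.00 in the class model (adjusted p = 4.87e-08) and -3.81 against high-background LEP-ICVN (adjusted p = 4.89e-07). Its mean rank was at percentile 1.23 in LEP-SQ and 77.3 in VEH-SQ (p = 0.0286, exact permutation test, a value that any gene without overlap reaches).

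Scd1, the stearoyl-CoA desaturase that makes monounsaturated fatty acids, gave 8855, 4056, 5718 and 678 in LEP-SQ and 59960.0, 40859, 63324 and 63964 in VEH-SQ. In VEH-SQ it stood at 68.1% to 96.4% of the highest signal on its array, close to the top of the scale, and in LEP-SQ at 1.12% to 14.2%. LEP_SQ_1041 had by far the lowest level. Scd1 fell by 4.32 on the log2 scale (SE 0.59, adjusted p = 9.66e-05), a size that can only be a lower limit where the VEH-SQ signals are held down by the top of the scale. The class model gave -2.85 (adjusted p = 0.148) and the high-background comparison -3.23 (adjusted p = 0.0558), neither past the test. Gstm3, a glutathione S-transferase of the mu class, had 252, 235, 236 and 203 in LEP-SQ and 2496, 1249.8, 3095 and 1929 in VEH-SQ and fell by 5.48 (adjusted p = 3.34e-05). It also fell by 2.69 in the class model (adjusted p = 0.0263), and differed by -1.75 against high-background LEP-ICVN (adjusted p = 0.637).

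**Figure D2:**
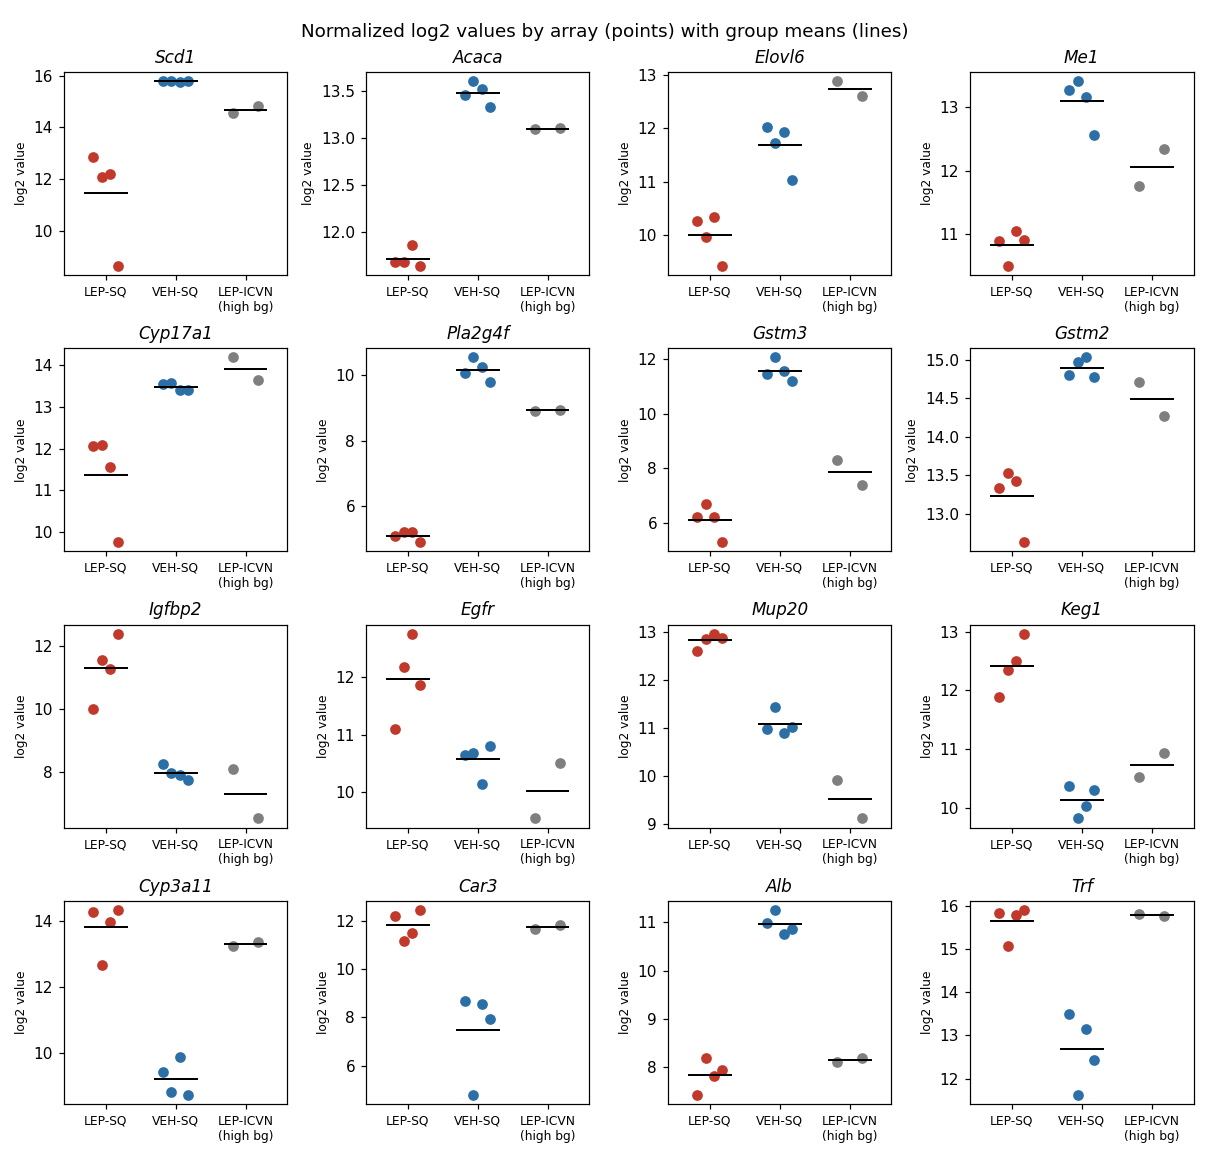
Normalized log2 values (y axis) of 16 genes in LEP-SQ, VEH-SQ and the 2 high-background (high bg) LEP-ICVN arrays, with 1 point per mouse and lines for means. Igfbp2 and Mup20 are higher and Pla2g4f and Acaca lower in LEP-SQ than in both other sets, while Cyp3a11, Car3 and Trf are low only in VEH-SQ and Alb is high only there.

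Of 12 fatty acid synthesis genes tested, 6 were called lower in LEP-SQ and 1 higher, and 11 of 12 had a negative difference in each of the 3 comparisons, the exception being Srebf1 throughout. The median over the list was -1.19, with -1.89 in the class model and -1.47 against high-background LEP-ICVN, where the medians over all genes were -0.04, 0.01 and 0.01. Acaca, the rate-limiting carboxylase, read 4109.8, 3078, 4593 and 4045 in LEP-SQ and 10506, 4189, 12625 and 8626 in VEH-SQ, with 14288 and 9633 on the high-background LEP-ICVN arrays. In signal the dimmest VEH-SQ array, VEH_SQ_1034, lay within the LEP-SQ range, while in rank the groups did not overlap. Acaca fell by 1.76 (adjusted p = 4.57e-05), with -1.85 in the class model (adjusted p = 0.00606) and -1.38 against LEP-ICVN (adjusted p = 0.0141). Elovl6, the elongase of palmitate, read 1709, 1001.8, 1744 and 1031 in LEP-SQ and 3620.2, 1000.2, 3790.0 and 1731 in VEH-SQ, signals that overlap while the ranks do not. Elovl6 fell by 1.68 (adjusted p = 0.0292), with -3.45 in the class model (adjusted p = 0.0207) and -2.74 against LEP-ICVN (adjusted p = 0.0184). Without VEH_SQ_1007, VEH_SQ_1034 or VEH_SQ_1035 or LEP_SQ_1041 Elovl6 was no longer called (largest adjusted p 0.0843).

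Me1 read 2525, 1395, 2685 and 2511 in LEP-SQ and 8989, 3642, 9417 and 5096 in VEH-SQ, with no overlap. Me1 fell by 2.26 (adjusted p = 2.03e-05) and by 1.92 in the class model (adjusted p = 0.0142), and differed by -1.22 against high-background LEP-ICVN (adjusted p = 0.18). Among members at high levels, Acly and Acss2 did not pass the test. Acly differed by -0.65 (adjusted p = 0.236), -2.08 in the class model (adjusted p = 0.0565) and -1.51 against LEP-ICVN (adjusted p = 0.0577), and Acss2, which activates acetate, by -0.77, -1.54 and -1.65 (adjusted p = 0.122, 0.316 and 0.0608). Fasn, added for its role after its values were seen, was dim, with 228, 194, 217 and 229 in LEP-SQ and 218, 139.8, 211 and 165 in VEH-SQ, and differed by -1.14 (adjusted p = 0.0521). Srebf1 was higher by 2.65 (adjusted p = 0.00563), with 1.60 in the class model (adjusted p = 0.681) and 0.03 against LEP-ICVN. Gpam, which starts triglyceride synthesis, was called lower in LEP-SQ (-0.85, adjusted p = 0.0372) and against LEP-ICVN (-1.55, adjusted p = 0.0377), from signals near background, 252, 201, 244 and 288 in LEP-SQ and 252, 121, 266 and 227 in VEH-SQ. It lost its first call without any 1 of 6 mice (VEH_SQ_1007, VEH_SQ_1035 or VEH_SQ_1040, LEP_SQ_1029, LEP_SQ_1032 or LEP_SQ_1039, largest adjusted p 0.0983).

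Of 14 growth hormone and IGF genes tested, 6 were called higher, and the median was 0.64, with 0.78 in the class model and 0.32 against high-background LEP-ICVN. Egfr, the receptor of epidermal growth factor, read 2845, 4312, 8299 and 4740.2 in LEP-SQ and 1452, 473, 1152 and 1459 in VEH-SQ, and rose by 1.41 (adjusted p = 0.00607) and by 1.96 against LEP-ICVN (adjusted p = 0.0377), with 1.63 in the class model (adjusted p = 0.265). Socs2 and Cish, feedback inhibitors that growth hormone induces, rose by 2.23 (adjusted p = 0.00587) and 1.39 (adjusted p = 0.0357). The class model gave 1.99 and 1.62 for these genes (adjusted p = 0.474 and 0.582), and Cish lost its call when any mouse but VEH_SQ_1007 or LEP_SQ_1039 was left out (largest adjusted p 0.112).

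Genes that differ between the sexes moved in both directions. Of 20 tested genes with more mRNA in male liver, 6 were called higher and 2 lower, with a median of 0.77 (0.69 in the class model, 0.70 against high-background LEP-ICVN). Mup20, a male urinary protein, read 7492, 6879, 9418 and 9542 in LEP-SQ and 1789, 809, 1905 and 1699 in VEH-SQ, without overlap. Mup20 rose by 1.74 (adjusted p = 0.00958), 3.04 in the class model (adjusted p = 0.0207) and 3.32 against LEP-ICVN (adjusted p = 0.00178). Mup5 rose alongside it, by 2.30, 2.74 and 2.46 (adjusted p = 0.000144, 0.00584 and 0.00518), although its other probe went the opposite way. Mup2 was called higher only against LEP-ICVN (1.58, adjusted p = 0.0141), its difference from VEH-SQ being -0.12 (adjusted p = 0.807) and 0.86 in the class model. The 2 Mup2 probes disagreed in direction between LEP-SQ and VEH-SQ. The Mup genes are near-identical copies, so a probe may read several of them. Keg1, a glycine N-acyltransferase-like gene, read 4713, 4867, 6989.8 and 9946 in LEP-SQ and 1209, 287, 1073 and 1055 in VEH-SQ and rose by 2.29 (adjusted p = 0.000151) and by 2.40 in the class model (adjusted p = 0.0207). It differed by 1.70 against LEP-ICVN (adjusted p = 0.0902).

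Sult1e1, the oestrogen sulfotransferase and a male-predominant gene, read 216, 219, 156 and 182 in LEP-SQ, detected on 1 array, and 795, 192, 532 and 226 in VEH-SQ, detected on all 4. Sult1e1 fell by 3.33 (adjusted p = 2.43e-05) and by 3.36 in the class model (adjusted p = 0.00606), and differed by -2.21 against LEP-ICVN (adjusted p = 0.0577). Among other male-predominant genes, Cyp7b1, an oxysterol hydroxylase, was higher by 2.11 (adjusted p = 0.000703), and Serpina1e by 2.5 (adjusted p = 0.0377), with 0.72 and 3.26 in the class model. The Serpina1e call depended on single mice: it was lost when any mouse but LEP_SQ_1029 or LEP_SQ_1032 was left out (largest adjusted p 0.155).

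Of 14 female-predominant genes, 1 was called higher and 3 lower. Cyp17a1, a steroid hydroxylase and lyase, read 5268, 3994, 3701 and 1252 in LEP-SQ and 11343, 4051, 11301 and 9098 in VEH-SQ, where VEH_SQ_1034 overlaps the LEP-SQ arrays in signal but not in rank. Cyp17a1 fell by 2.12 (adjusted p = 0.00294), with -2.98 in the class model (adjusted p = 0.0277) and -2.56 against LEP-ICVN (adjusted p = 0.0377). Hao2, a hydroxyacid oxidase, fell by 2.27 (adjusted p = 0.00246), with -1.94 in the class model (adjusted p = 0.333). A1bg, which encodes a plasma glycoprotein, was detected on no VEH-SQ array and was at least 1.5-fold higher in LEP-SQ. Its log2 difference was 1.52 in the class model (adjusted p = 0.345) and 0.37 against LEP-ICVN.

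Glutathione S-transferases, which conjugate glutathione to reactive compounds, had 9 of 20 tested members called lower and 1 higher, with a median of -0.10. In the class model 2 were called lower, Gstm3 and Gstm2, and the median was -0.57. Gstm2 read 12018, 11175, 12897 and 7963 in LEP-SQ and 26272, 13832, 36175 and 26548 in VEH-SQ, bright on every array and without overlap. Gstm2 fell by 1.66 (adjusted p = 0.000391) and by 1.85 in the class model (adjusted p = 0.0207), with -1.26 against LEP-ICVN (adjusted p = 0.132). Gsta1 read 3513, 1556, 1381 and 1122 in LEP-SQ and 15239, 10024, 24642 and 8049 in VEH-SQ and fell by 3.66 (adjusted p = 0.000463), with -2.42 in the class model (adjusted p = 0.276). Gsta2 fell by 2.30 (adjusted p = 0.00333). Gsto1, of the omega class, was higher by 2.0 (adjusted p = 0.00958), with 0.15 in the class model and -0.20 against LEP-ICVN. Members of the mu and alpha classes resemble each other closely, so probes may not separate them.

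Across all genes, 21 were called in the same direction with and without background class in the model, 8 higher and 13 lower. Of these, 11 were also called against high-background LEP-ICVN: Igfbp2, Mup20 and Mup5 were higher, and Acaca, Elovl6, Cyp17a1, Pla2g4f, Chrna4, Fam83f, P2ry14 and Tceal5 lower. These comparisons share the LEP-SQ arrays, and the class term draws in part on the same LEP-ICVN arrays, so the calls are not independent. Chrna4, a subunit of the nicotinic acetylcholine receptor, read 199, 229, 189 and 202 in LEP-SQ and 809, 274, 1206 and 914 in VEH-SQ and fell by 4.34 (adjusted p = 2.23e-05), with -4.54 in the class model and -3.32 against LEP-ICVN. Among LEP-SQ arrays it was detected on 1 of 4. Fam83f was not detected in LEP-SQ, with 227, 213, 191 and 156, and read 439, 248, 539.7 and 441 in VEH-SQ, so that it was at least 8.43-fold lower (adjusted p = 1.66e-05). P2ry14, a receptor for UDP-glucose, fell by 1.34 (adjusted p = 0.000569), with -1.55 in the class model and -1.53 against LEP-ICVN. Tceal5 was not detected in LEP-SQ and was at least 1.86-fold lower (adjusted p = 0.00421), from VEH-SQ signals of 191, 149, 207 and 158 that lay barely above the array background.

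Others of the 21 genes did not pass the test against high-background LEP-ICVN. Foxq1, a forkhead transcription factor, read 2329.7, 4398, 2025 and 4511 in LEP-SQ and 548, 131, 418 and 389 in VEH-SQ, and rose by 2.97 (adjusted p = 0.000186) and by 2.92 in the class model (adjusted p = 0.0381). Phlda1 read 7940.1, 8258, 5264 and 10111 in LEP-SQ and 1109, 192, 1105 and 985 in VEH-SQ, and rose by 2.86 (adjusted p = 5.86e-05) and by 3.12 (adjusted p = 0.00606). Sult2a8, a sulfotransferase, rose by 3.28 and 2.63 (adjusted p = 4.57e-05 and 0.0436). Against high-background LEP-ICVN their differences were 2.29, 2.11 and 1.98, with adjusted p of 0.0579, 0.052 and 0.154. Ocln, the tight junction protein occludin, was detected on no VEH-SQ array and was at least 1.18-fold higher (adjusted p = 3.34e-05), and Bex4 fell by 1.93 (adjusted p = 0.000392), with -2.51 in the class model (adjusted p = 0.00584). Dusp6, a phosphatase of the ERK kinases, rose against LEP-ICVN by 1.15 (adjusted p = 0.0377) and against VEH-SQ by 0.59 (adjusted p = 0.0422). The call against VEH-SQ was lost without any 1 of 7 mice, all but VEH_SQ_1040 (largest adjusted p 0.114).

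The bright genes described here are the 12 largest increases and 12 largest decreases among called genes whose signal reached 1000 on every array of the higher group and whose ranks did not overlap, a choice made on this comparison, so their values in the other comparisons are a description only. Cyp3a11, a drug-metabolizing P450, read 22850.0, 6028, 19129 and 24618 in LEP-SQ, 670.2, 183, 979 and 411 in VEH-SQ and 15881 and 11825 on high-background LEP-ICVN arrays. LEP-SQ and LEP-ICVN overlap while VEH-SQ stands apart. Cyp3a11 was higher by 4.6 (adjusted p = 0.00556), with 2.07 in the class model (adjusted p = 0.76) and 0.51 against LEP-ICVN, which did not pass the test. Car3, the carbonic anhydrase abundant in liver and fat, read 5721, 2173, 3575 and 6901 in LEP-SQ, 422, 103, 434 and 277 in VEH-SQ and 5537 and 4165 in high-background LEP-ICVN, and differed from VEH-SQ by 4.34 (adjusted p = 0.0036) and from LEP-ICVN by 0.08. The antioxidant enzyme Gpx1 was higher by 3.96 (adjusted p = 0.00255), with 1.43 in the class model and 0.19 against LEP-ICVN.

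The increases of Hebp1, Ces1b, Vapb, Serpind1, Il1rap, Idh1 and Scp2 ran between 3.25 and 3.96, and those against LEP-ICVN between -0.28 and 1.61. The decreases of Erich5, Ndufb4, Pecr, Lrtm1, Rhbdl2, Uck1, Hrg and the glucose 6-phosphate transporter Slc37a4 ran between -3.36 and -2.29, with differences against LEP-ICVN between -2.89 and 0.82. Of these 24 genes only Igfbp2, Gstm3 and Sult2a8 were also called in the class model. When only the 2558 genes with a mean signal of at least 1000 over all 26 arrays were ranked and tested, 559 (21.9%) were higher and 665 (26%) lower, and with background class in that model 12 (0.469%) and 17 (0.665%). In the class model Erich5, Rhbdl2 and Hrg turned to 0.86, 0.56 and 0.11. The Erich5 call was lost without VEH_SQ_1040 or LEP_SQ_1029, LEP_SQ_1039 or LEP_SQ_1041 (largest adjusted p 0.0663), and the Hrg probes disagreed in direction.

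**Figure D3:**
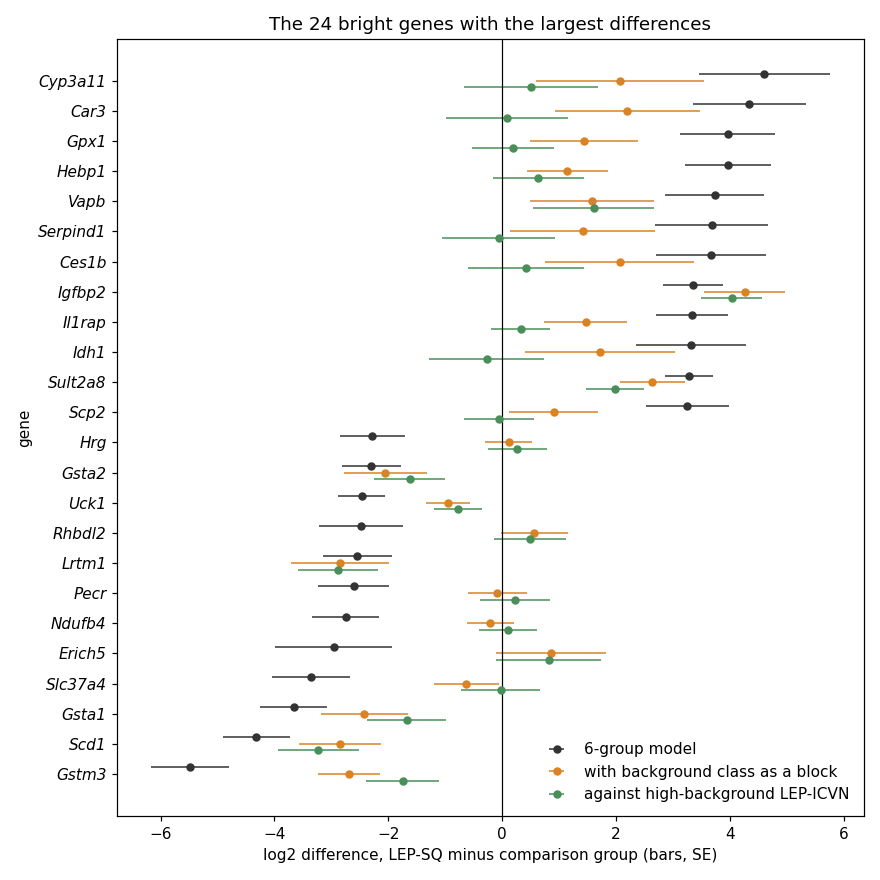
Log2 differences (x axis, bars SE) of the 24 bright genes in 3 comparisons: LEP-SQ against VEH-SQ, the same with background class in the model, and LEP-SQ against high-background LEP-ICVN. Igfbp2 lies at 3.35, 4.26 and 4.03, while Cyp3a11 lies at 4.6, 2.07 and 0.51.

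Apart from Sult1e1, no member of the lists described from here on was called in the class model or against high-background LEP-ICVN by limma, where 635 and 386 of the 7953 genes had an unadjusted p under 0.05. Fatty acid oxidation and ketogenesis had 9 of 27 members higher and 2 lower than in VEH-SQ, with a median of 0.36 (0.08 in the class model). The electron transfer genes Etfdh and Etfa were higher by 2.42 and 1.99 (adjusted p = 0.0183 and 0.00654), but differed by -0.56 and -0.04 against LEP-ICVN. Hadh, a dehydrogenase of short-chain intermediates, was not detected in LEP-SQ and was at least 3.15-fold lower there than in VEH-SQ. Its log2 difference was -0.53 in the class model and -0.16 against LEP-ICVN. The 2 Etfdh probes disagreed in direction, and its call was lost without LEP_SQ_1041 (adjusted p = 0.0527). The lipid droplet and PPARgamma list had 2 of 16 members higher and 6 lower, with a median of -0.66 (-0.45 in the class model and -0.34 against LEP-ICVN). Lipoprotein lipase (Lpl) was higher by 1.32 (adjusted p = 0.00444), the fatty acid carrier Cd36 was lower and not detected in LEP-SQ, at least 2.01-fold, but differed by 0.22 in the class model, and the droplet coat protein Plin2 was higher by 2.43 (adjusted p = 0.0478), with -0.12 against LEP-ICVN. The Plin2 call was lost without any 1 of 6 mice (all but VEH_SQ_1035 and LEP_SQ_1032, largest adjusted p 0.178).

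Glucose metabolism had 1 of 16 members higher and 6 lower, with a median of -0.49 (-0.34 in the class model). Pck1, the gluconeogenic carboxykinase, read 1225, 1165, 1279 and 1209 in LEP-SQ and 5802, 877, 6924 and 5526 in VEH-SQ, and was lower (log2 -2.57, adjusted p = 0.00607), with -0.21 in the class model and -0.06 against LEP-ICVN. VEH_SQ_1034 was below all LEP-SQ arrays in signal. Glycogen synthase (Gys2) was higher by at least 2.01-fold, from VEH-SQ arrays without detection, and differed by -0.49 against LEP-ICVN. Its call was lost without VEH_SQ_1034 or LEP_SQ_1029, LEP_SQ_1039 or LEP_SQ_1041 (largest adjusted p 0.0667). Amino acid catabolism had 2 of 36 members higher and 14 lower, with a median of -0.50 (-0.25 in the class model and -0.16 against LEP-ICVN). Csad, which makes taurine, was higher by 3.39 (adjusted p = 0.00956), and the lysine-degrading enzymes Aadat and Aass were lower (log2 -2.17 and -2.08, adjusted p = 0.00202 and 0.00174), although the 2 Aass probes disagreed in direction.

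Iron genes had 8 of 18 members higher and 1 lower (median 0.74, and 0.06 against LEP-ICVN). Haemopexin (Hpx), which carries haem in plasma, was higher by 2.26 (adjusted p = 0.0153), a call lost, as was that of Trf, without VEH_SQ_1034 (adjusted p = 0.0565 and 0.0557). Hamp2, a paralogue of the iron hormone hepcidin, read 14369, 22935, 5588 and 10396 in LEP-SQ and 27701, 14676, 39835 and 36463 in VEH-SQ, and was lower (log2 -1.72, adjusted p = 0.0294), with -2.08 in the class model and -1.84 against LEP-ICVN. Leaving out any 1 of VEH_SQ_1034, VEH_SQ_1035 or VEH_SQ_1040 or LEP_SQ_1039 or LEP_SQ_1041 ended that call (largest adjusted p 0.110). Chaperones of the endoplasmic reticulum had 8 of 17 members higher and 1 lower, with a median of 0.68 that was 0.65 in the class model and 0.40 against LEP-ICVN. The protein disulfide isomerases Pdia3 and Pdia4 were higher by 2.57 and 2.16 (adjusted p = 0.00692 and 0.0094) and Creld2 by 1.66 (adjusted p = 0.00151), with class-model differences of 1.68, 1.68 and 1.35. Dnajb9, a co-chaperone, was higher by 2.27 (adjusted p = 0.00766), with 0.24 in the class model and -0.38 against LEP-ICVN.

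Interferon-induced genes had 14 of 28 members higher and 3 lower. Their median of 0.55 was 0.78 in the class model and 0.48 against LEP-ICVN. There 25 of 28 members were positive, as were 4087 of all 7953 genes. The guanylate-binding protein Gbp2 was detected on all LEP-SQ arrays and no VEH-SQ array, at least 4.19-fold higher (adjusted p = 0.00427). Its log2 difference was 1.29 in the class model and 0.62 against LEP-ICVN. Rsad2, an antiviral enzyme, was higher by 1.44 (adjusted p = 0.0018), with 1.10 in the class model. Gbp3 differed by 1.49 (adjusted p = 0.00848), and by 0.91 without VEH_SQ_1034. Ifit2 was detected on no VEH-SQ array and was at least 1.04-fold higher. Of 8 class II antigen presentation genes 4 were higher, with a median of 0.86 (0.77 in the class model). H2-Ab1, a chain of the class II molecule, read 4149, 2125, 2893 and 4199 in LEP-SQ and 470.2, 332, 598 and 719.9 in VEH-SQ and was higher by 1.98 (adjusted p = 0.00202), with 1.3 in the class model, and its chaperone Cd74 was higher by 1.35 (adjusted p = 0.0132). Of 13 Kupffer cell and macrophage markers 3 were higher and 1 lower, with a median of 0.079 in normalized values (0.434 in the class model), and their summed unnormalized signal, background included, was 9492 to 14719 in LEP-SQ and 3526 to 8128 in VEH-SQ. Their part in the class II and interferon values was not tested.

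**Figure D4:**
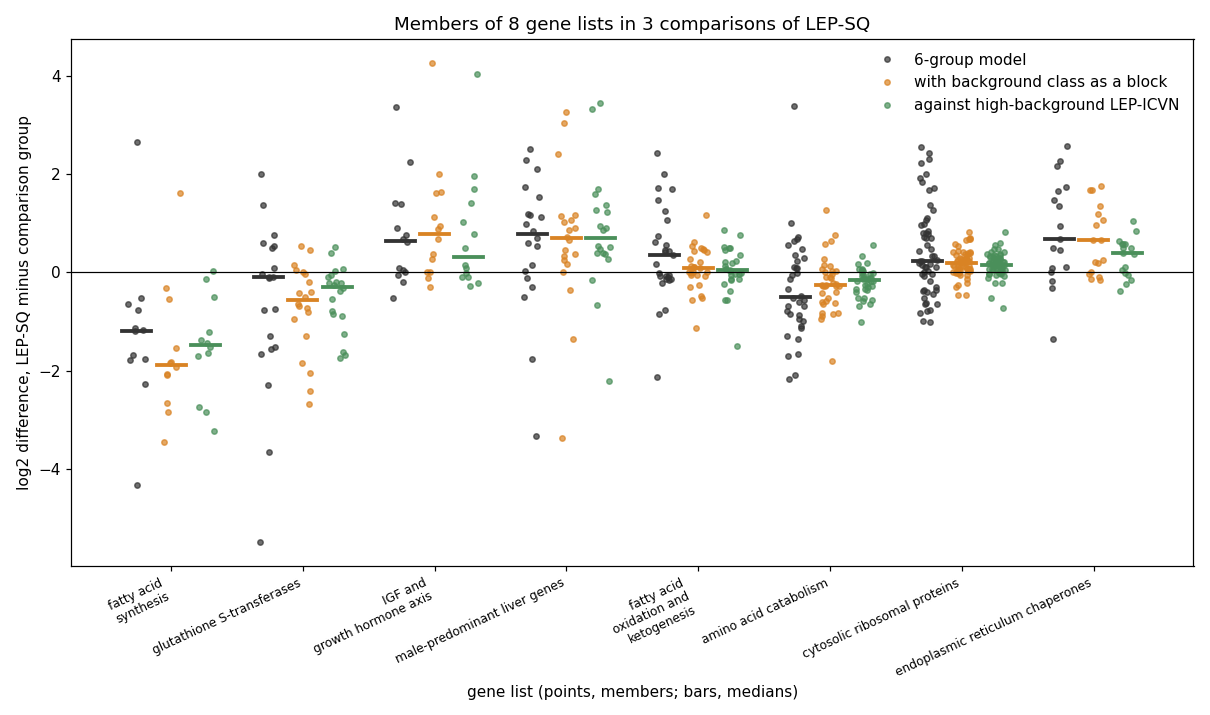
Log2 differences (y axis) of the members of 8 gene lists in 3 comparisons: LEP-SQ against VEH-SQ, the same with background class in the model, and LEP-SQ against high-background LEP-ICVN, with points for genes and bars for medians. The fatty acid synthesis medians are -1.19, -1.89 and -1.47, while the amino acid catabolism medians are -0.50, -0.25 and -0.16.

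The drug-metabolizing P450 list had 4 of 27 members higher and 3 lower, with a median of 0.25 (-0.20 in the class model). Cyp2c70, a bile acid hydroxylase, was higher by 1.49 (adjusted p = 0.00488) and Cyp2j9 lower (log2 -1.89, adjusted p = 0.00425). Sulfotransferases and UDP-glucuronosyltransferases had 10 of 19 members higher and 2 lower, with a median of 0.96 that was 0.24 in the class model. Of these, Ugt3a1 and Ugt3a2 were higher by 2.73 and 2.43 (adjusted p = 0.00458 and 0.00612), and differed by -0.12 and -0.01 against LEP-ICVN. Oxidative phosphorylation had 15 of 71 members higher and 20 lower, and cytosolic ribosomal proteins 19 of 57 higher and 6 lower. Leptin receptor signalling genes had 4 of 13 higher and 2 lower, with a median of 0.11.

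The effect of leptin under the skin was compared with that of leptin in the brain as a difference of differences, (LEP-SQ minus VEH-SQ) minus (LEP-ICV minus VEH-ICV). The doses differed, at 10 and 1.5 µg per day, and so did the background classes, since 2 of 4 LEP-ICV arrays were of high background. The paper also reported more weight loss and lower serum insulin with leptin in the brain than under the skin. Route, dose and degree of weight loss cannot be told apart here. The difference was called higher for 73 genes (0.918%) and lower for 87 (1.09%), and with background class in the model for 50 (0.629%) and 78 (0.981%). Of the 11 tested genes of lipid-laden macrophages, the same 5 differed downward in both models, Cd63, Gpnmb, Lgals3, Mmp12 and Trem2, named after their values were seen. That list had a median of 0.40 in LEP-SQ against VEH-SQ, with 2 members called higher and 1 lower. In LEP-ICV against VEH-ICV its median was 2.17, with 7 called higher and 0 lower. Of 18 genes of cholesterol synthesis and uptake, 6 differed upward and 5 did with background class in the model. Its members had a median of 0.04 in LEP-SQ against VEH-SQ, with 4 called higher and 1 lower, and of -1.88 in LEP-ICV against VEH-ICV, with 14 called lower, where 14.1% of all genes were called higher and 12.2% lower.

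Msmo1, a sterol C4 methyl oxidase, read 3565, 3100.1, 6299.8 and 3627 in LEP-SQ and 1624, 333, 1497 and 1119 in VEH-SQ. It was higher by 1.28 in LEP-SQ (adjusted p = 0.0206, up to 0.0702 without VEH_SQ_1034 or LEP_SQ_1039) and lower in LEP-ICV (log2 -2.41, adjusted p = 0.00029), so the routes differed by 3.69 (SE 0.59, adjusted p = 0.00329; 0.00741 with background class). Sqle, squalene epoxidase, was higher by 2.01 with leptin under the skin and lower with leptin in the brain (log2 -1.48), a difference of 3.49 (SE 0.75, adjusted p = 0.0158, and 0.0422 with background class). Against high-background LEP-ICVN, both were near 0, at -0.28 and -0.30. Cyp51, the lanosterol demethylase, was higher by 4.21 in LEP-SQ (adjusted p = 0.00203), Ebp, a sterol isomerase, by 1.3 (adjusted p = 0.0135), and Idi1, an isomerase at the start of the pathway, was lower (log2 -1.55, adjusted p = 0.0344). In the class model Idi1 turned to 0.21, and Cyp51, Ebp and Msmo1 stood at 1.58, 0.41 and 0.28 (adjusted p = 0.714, 0.870 and 0.925). Against LEP-ICVN Cyp51, Ebp and Idi1 differed by -0.18, -0.24 and 0.14, each opposite to the difference from VEH-SQ. The Idi1 call was lost without any 1 mouse except LEP_SQ_1039 (largest adjusted p 0.0994).

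**Figure D5:**
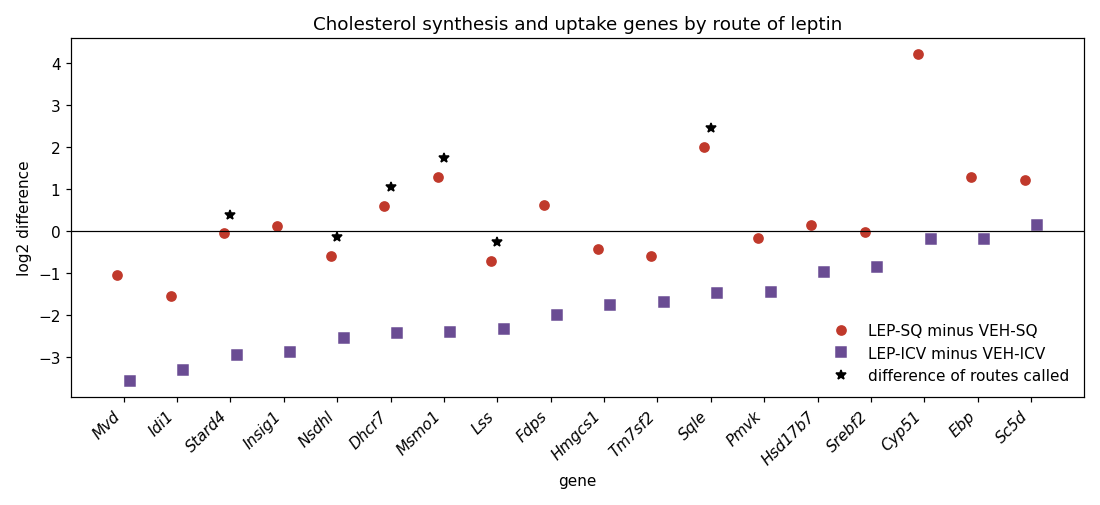
Log2 effect of leptin (y axis) on 18 genes of cholesterol synthesis and uptake, with circles for LEP-SQ against VEH-SQ, squares for LEP-ICV against VEH-ICV and stars where the difference between routes was called. Msmo1 lies at 1.28 and -2.41 and Sqle at 2.01 and -1.48.

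Genes outside the sterol pathway differed between routes as well. Ces3b, a carboxylesterase, read 5052, 5028, 7564 and 6081 in LEP-SQ and 2181, 348, 2119 and 2075 in VEH-SQ, a log2 difference of 1.36 (adjusted p = 0.078), while in LEP-ICV it was lower (log2 -3.71, adjusted p = 0.000208), so the routes differed by 5.08 (SE 0.87, adjusted p = 0.00359; 0.00695 with background class). Fgf21, a fasting hormone of the liver, read 1779.7, 347, 1940.2 and 2109 in LEP-SQ and 644, 382, 949.6 and 1098 in VEH-SQ. Its log2 difference was -0.15 with leptin under the skin (adjusted p = 0.846), 0.50 without LEP_SQ_1032 and 0.53 in the class model. With leptin in the brain it was 3.15 (adjusted p = 0.0004). The routes differed by -3.30 (adjusted p = 0.0307; 0.0652 with background class), a call lost without VEH_SQ_1034 or VEH_SQ_1040 or LEP_SQ_1032 (largest adjusted p 0.0718). Apoa4, an apolipoprotein that rises in fatty liver, was lower with leptin under the skin (log2 -1.16) and higher with leptin in the brain (log2 1.59), a difference of -2.75 (adjusted p = 0.0153, and 0.0197 with background class). Its call in LEP-SQ against VEH-SQ was lost without VEH_SQ_1034 or VEH_SQ_1040 or LEP_SQ_1032 or LEP_SQ_1041 (largest adjusted p 0.138). That difference was -0.76 without LEP_SQ_1032.

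Uap1l1, a relative of the UDP-N-acetylglucosamine pyrophosphorylase, was at 0.05 with leptin under the skin and 2.86 with leptin in the brain, a difference of -2.81 (adjusted p = 0.00925, and 0.0296 with background class). Cd63, a tetraspanin of lysosomes, differed between routes by -2.86 (adjusted p = 0.0176; 0.0402 with background class), a call lost without LEP_SQ_1032 (adjusted p = 0.0514). Hamp2 was lower in both routes (log2 -1.72 and -5.20) and differed by 3.47 (adjusted p = 0.0349; 0.065 with background class), a call lost without any 1 mouse but LEP_SQ_1039 (largest adjusted p 0.0909). Within fatty acid synthesis, Srebf1 differed by 4.47 (adjusted p = 0.0139; 0.0402 with background class) and Acss2 by 2.35 (adjusted p = 0.0294; 0.0653 with background class). Acaca and Elovl6 did not pass the test between routes, at -0.92 (SE 0.32, unadjusted p = 0.00842 and adjusted p = 0.143 by limma) and -0.10 (SE 0.84, adjusted p = 0.963). Igfbp2 rose under either route, by 3.35 and 4.57, with a difference of -1.22 (SE 0.75, adjusted p = 0.439).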

How the data were processed

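Liver RNA of 26 mice was measured on 1 array each, and the samples were grouped by their titles. The authors deposited unnormalized probe intensities from BeadStudio 2.0, with a detection score between 0 and 1 beside each, and the detection p-value of a deposited intensity was taken as 1 minus this score. The authors also deposited log2 values, which they made with lumi by variance stabilization and robust spline normalization, and these served as an alternative. Chips and scan dates are not given in the sources used here. Precision is limited by how many arrays there were.

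Background was corrected with the detection p-values, an offset of 16 was added, and arrays were quantile normalized and taken to log2 with limma 3.58.1 in R 4.3.3. The tests covered the 11001 of 25697 probes that 4 or more arrays detected at p under 0.01, of which 662 had no gene name in the platform annotation. For each gene the brightest of its tested probes on average was kept, leaving 7953 genes. The comparisons were contrasts of a single limma model holding all 6 groups, with moderated variances. P-values were adjusted over the 7953 genes (Benjamini-Hochberg), and 0.05 was the limit for a call. A gene not detected on any array of the lower group has only a bound, the higher group's mean over the lowest level that was still detected. The p-values measure the spread between mice and between their arrays together, since no mouse was measured on repeat arrays. In the model without background class, that spread also holds any difference between background classes within LEP-ICV and LEP-ICVN.

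The genes named are Igfbp2, Scd1, Gstm3 and Pla2g4f; the 12 largest increases and decreases among bright called genes without overlap of ranks; genes called in the same direction with and without background class; up to 4 called members of each list described, and up to 2 others for fatty acid synthesis; and the 4 largest differences between routes in each direction among called bright genes. Calls against the high-background LEP-ICVN arrays and Fasn were added after their values were seen. The members and lists were chosen with earlier results of these data known.

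In data simulated for LEP-SQ against VEH-SQ over 7953 genes, the model called 77.3% of genes given a log2 change of 2, 28.8% of genes given 1 and 1.52% of genes given 0.5, and with background class in the model 48.5%, 7.58% and 1.52%. The simulation added each array's own background to its signals. It gave no gene an effect of background class, and no difference between groups other than the changes set for LEP-SQ.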

Additional observations from a re-analysis of the deposited data

Results flagged for a closer look

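The LEP-SQ or VEH-SQ level of 1 mouse stood apart from the other 3 of its group in 19 cases of 204 groups tested, judged by its gap to the nearest value over the range of the group, and chance flags about 1 in 20 groups. VEH_SQ_1034 had 6786 detected probes, against 8358 to 8516 in the others of its group, and LEP_SQ_1032 had 2720 probes over a signal of 1000, against 3482 to 3573. VEH_SQ_1034 was the low one for Plin2 (log2 level 5.62), Gpam (6.14), Pck1 (11.57), Phlda1 (8.93) and Etfdh (8.04), and the high one for Slc37a4 (12.70) and A1bg (5.41). LEP_SQ_1032 was high for Chrna4 (6.59) and Rhbdl2 (11.64) and low for Scp2 (13.17), Trf (15.08) and Fgf21 (7.90). LEP_SQ_1039 was high for Acly (13.64) and Alas2 (11.63). In VEH-SQ, VEH_SQ_1035 was low for Scd1 (15.75, against 15.79 in the others, near the top of the scale), and VEH_SQ_1007 was high for Serpina1e (9.68) and low for Uck1 (12).

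The leptin effect under the skin minus that in the brain passed the test for 18 of the genes named, leaving aside Gpnmb, Lgals3, Mmp12 and Trem2, which are given above. It was positive for Ces3b (5.08), Srebf1 (4.47), Msmo1 (3.69), Sqle (3.49), Hamp2 (3.47), Lrtm1 (3.34), Phlda1 (3.15), Sult2a8 (3.08), Foxq1 (2.74), Keg1 (2.36), Acss2 (2.35), Alas2 (1.36) and Ocln (1.28), and negative for Fgf21 (-3.30), Cd63 (-2.86), Uap1l1 (-2.81), Apoa4 (-2.75) and P2ry14 (-1.52). With background class in the model, Acss2, Alas2, Fgf21, Hamp2, Lrtm1 and Ocln no longer passed, with adjusted p of 0.0653, 0.0645, 0.0652, 0.0650, 0.0693 and 0.0793.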

How the results depend on the processing

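Background class and treatment cannot be told apart in LEP-SQ against VEH-SQ, and VEH_SQ_1034 had the dimmest array. Of 1516 higher and 1658 lower genes, 9 and 14 were called with background class in the model, 11 and 23 with log2 background as a covariate, and 7 and 9 within the high-background arrays. Array weights gave 2599 and 3028, bright probes alone 559 and 665, and leaving out 1 mouse 993 to 1431 and 1097 to 1611, fewest without LEP_SQ_1041. With median scaling 33.8% of the called genes were higher, against 47.8% as reported, and 1976 were lower, with a median over all genes of -0.27. Alternatives chosen after seeing the data gave 4 and 8 (background class, without the dimmest array), 12 and 17 (bright probes with background class) and 16 and 18 (the authors' log2 values with background class).

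For the difference between routes, 73 higher and 87 lower genes became 45 and 40 with only the groups compared and 547 and 809 with array weights. Lower genes numbered 54 with median scaling and 51 with bright probes alone. Leaving out 1 mouse gave 32 to 70 and 35 to 84, fewest higher without VEH_SQ_1034 and fewest lower without LEP_SQ_1032. Background class without the dimmest array gave 22 and 27, and bright probes with background class 46 lower genes. No paired analysis was possible because each mouse has a number of its own.

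Among 99 genes named in the text, the sign of LEP-SQ against VEH-SQ turned for 25 against high-background LEP-ICVN: Fgf21 0.87, Erich5 0.82, Cd63 0.48, Rhbdl2 0.49, Hrg 0.26, Pecr 0.22, Idi1 0.14, Ndufb4 0.11 and Mup2 1.58 were positive, and Etfdh -0.56, Gys2 -0.49, Dnajb9 -0.38, Sqle -0.30, Msmo1 -0.28, Idh1 -0.28, Ebp -0.24, Gsto1 -0.20, Cyp51 -0.18, Trf -0.14, Ugt3a1 -0.12, Plin2 -0.12, Serpind1 -0.063, Scp2 -0.060, Etfa -0.037 and Ugt3a2 -0.010 negative. With background class in the model they turned for Erich5 (0.86), Mup2 (0.86), Rhbdl2 (0.56), Fgf21 (0.53), Cd63 (0.22), Cd36 (0.22), Idi1 (0.21) and Hrg (0.11). Without the dimmest array these were 0.64 for Erich5, 0.89 for Mup2, 0.41 for Rhbdl2, 0.18 for Idi1, 0.66 for Fgf21, 0.45 for Cd63 and 0.23 for Hrg. With bright probes and background class they were 0.61 for Erich5, 0.48 for Mup2, 0.40 for Rhbdl2, 0.41 for Fgf21 and 0.19 for Hrg. With the authors' log2 values and background class they were 0.66 for Erich5, 0.96 for Mup2, 0.41 for Rhbdl2, 0.027 for Cd36, -0.034 for Gys2, 0.54 for Fgf21, 0.22 for Cd63 and 0.075 for Hrg. The covariate turned Erich5 (0.019), Mup2 (0.68) and Fgf21 (0.27), array weights Fgf21 (0.40), bright probes alone Uap1l1 (-0.57), median scaling Etfa (-0.15), the authors' log2 values Mup2 (0.0047) and the mean of its probes Mup2 (0.45). Leaving out 1 mouse turned Fgf21 without LEP_SQ_1032 (range -0.40 to 0.50) and Uap1l1, near 0 in any case, without 5 of the mice (range -0.16 to 0.39). The cause was not tested.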
